A study of Homo sapiens with 6 samples.

Results

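NF-kB is a family of transcription factors built from the subunits NFKB1, NFKB2, REL, RELA and RELB, which pair up and bind short DNA sites known as kB sites. In a resting cell the IkB inhibitors, among them NFKBIA, NFKBIB and NFKBIE, hold the dimers in the cytoplasm until the IKK kinase complex marks the inhibitor for destruction. TNFAIP3 (A20) edits ubiquitin chains upstream of IKK and BCL3 is a nuclear IkB protein, and several of these genes are themselves switched on by NF-kB, which closes feedback loops. In podocytes, the cells that wrap the glomerular capillaries, the pathway is known from injury and inflammation. These 5 subunits and 5 inhibitors or feedback regulators were looked up by gene symbol among the 20745 genes of the deposited table, and all 10 had a row. The members were chosen from the pathway with the authors' levamisole comparison of the same genes already known, so the choice itself is not evidence of an effect.

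RNA was sequenced from AB 8/13, a conditionally immortalized human podocyte line that divides at the permissive temperature and differentiates at the restrictive one. There were 3 control samples and 3 samples treated with 1 µM levamisole, an anthelmintic with immunomodulatory use in nephrotic syndrome, for 24 h, all after 7 to 10 days of differentiation. The labels' treatment protocol places both groups in serum-free medium, whereas the study's methods put the vehicle cells in complete medium, and this difference was not resolved here. AB 8/13 is 1 line, and the replicates were different passages of it.

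The file holds 1 level for each gene, the base mean, which is the authors' mean of normalized reads over all libraries of their fit. No value per sample was analysed here, so neither the spread between cultures nor the levels of the control and levamisole groups can be given, and the depth of each library is unknown. The remaining numeric columns are the authors' own comparison of levamisole with control and were not used. The values therefore describe how strongly podocyte cultures expressed the NF-kB genes, and give no direction, size or test of a levamisole effect. The lowest base mean in the table was 0.194, the median 21.8, and 3744 genes were below 1. Reads came mostly from the 3′ end of transcripts, as the libraries followed a CEL-seq type protocol.

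The sequences at the starts of these genes are shown first, because most members share matches to the kB consensus there. The protein sequences of the members were not compared here. RefSeq promoter windows (GRCh38.p14) run from 250 bases before to 50 bases after a transcript start. The kB consensus searched has 10 bases, namely 3 G, a purine, 2 bases of any kind, 2 pyrimidines and 2 C, read on both strands. RELB and NFKBIE had no window in the set used. The other 8 members had 13 windows, since NFKB1, NFKB2, RELA and NFKBIB have more than 1 start. Each run below is read 5′ to 3′ on the strand of the gene, with the letters that match in capitals and flanking bases in lower case.
NFKB1 (chr4:102501300-102501329, plus strand): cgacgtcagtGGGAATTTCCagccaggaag
REL (chr2:60881517-60881547, plus strand): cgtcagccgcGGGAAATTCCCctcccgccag
NFKBIA (chr14:35404811-35404840, minus strand): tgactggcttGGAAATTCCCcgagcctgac
NFKBIB (chr19:38899931-38899961, plus strand): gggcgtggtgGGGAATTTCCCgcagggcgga
NFKB2 (chr10:102394461-102394519, plus strand): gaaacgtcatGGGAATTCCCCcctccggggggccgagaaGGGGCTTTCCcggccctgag
NFKB2 (chr10:102395519-102395548, plus strand): aacccccaccGGGGCTTCCCggattctcct
NFKB2 (chr10:102395674-102395703, plus strand): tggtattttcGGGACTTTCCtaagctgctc
TNFAIP3 (chr6:137867182-137867223, plus strand): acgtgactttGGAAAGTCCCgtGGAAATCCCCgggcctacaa
BCL3 (chr19:44748700-44748729, plus strand): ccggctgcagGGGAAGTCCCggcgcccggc

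At least 1 match was found for 7 of the 8 members with a window, and in 8 of the 13 windows. Of all 35114 windows 11.3% held a match, and among the 22575 windows within the members' range of GC content the share was 14.6%. That range is wide, from 51.3% to 80.0% GC. The median GC content was 68.7% for the members' windows and 58.7% for all windows, so the comparison is not matched on GC content. Counted by gene, 13.3% of 27303 genes with a window held a match, and the share was 25.1% of the genes with more than 1 window. RELA, the subunit that carries the main activation domain of the common heterodimer, was the member with no match in either of its 2 windows, which says only that these letters are not there. A match is a description of the sequence, and binding was not measured in these cultures.

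Where matches overlap or lie next to each other, they were counted as 1 place if they shared bases, which gave 12 places. NFKB2 had 4 of them, in the windows of 2 of its 3 starts. TNFAIP3 and NFKBIB had 2 each, and those of TNFAIP3 lie side by side between 67 and 46 bases upstream of the start. The place of NFKB1 lies 49 to 40 bases upstream, that of REL 47 to 37 bases upstream and that of NFKBIA 81 to 72 bases upstream. The match of BCL3 begins at base 3 of the transcript. The second place of NFKBIB, which is not printed, covers bases 39 to 48 of its transcript. All these distances count from the RefSeq start of the window, which can differ from the gene positions given below, taken from GENCODE. By those positions, the places of REL, NFKBIB, NFKB2 and BCL3 lie inside the span of their gene. The centre of 8 of the 12 places was within 100 bases upstream of the start, against 36.7% of the 4338 places in all windows. Windows with 2 or more places made up 0.994% of all windows.

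**Figure D1:**
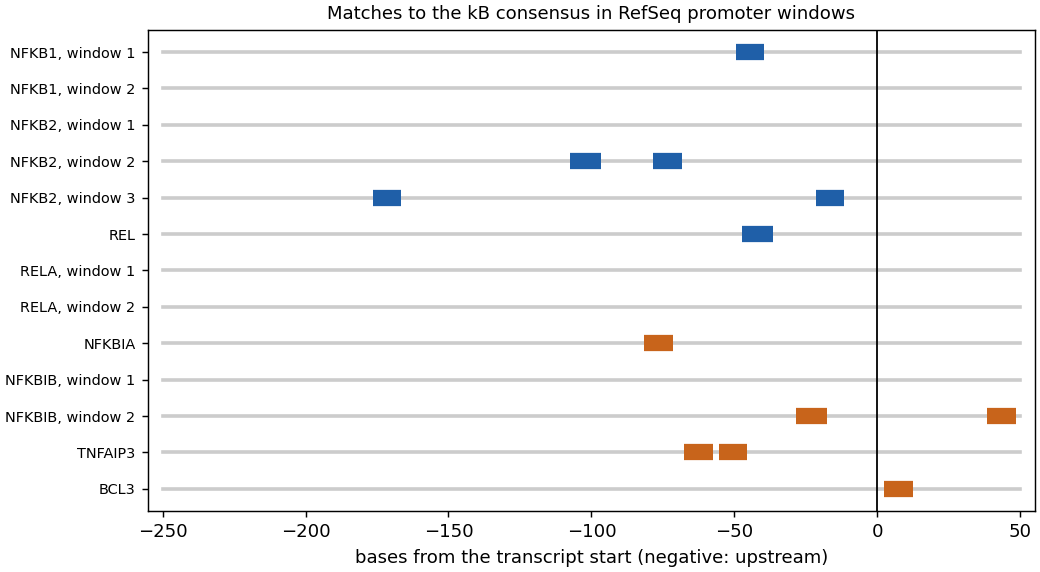
Places that match the kB consensus (thick bars) in the 13 promoter windows of 8 members, by distance in bases from the transcript start, with subunits in blue and inhibitors or feedback genes in orange. Grey lines are the windows. The 2 windows of RELA hold none, and 8 of the 12 places centre within 100 bases upstream.

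Some of these sites are the same letters. The site of NFKB1, GGGAATTTCC, recurs in NFKBIB and, on the opposite strand as GGAAATTCCC, in REL and NFKBIA. These 4 members, 2 subunits and 2 inhibitors, thus carry the same 10 bases close to a start. The site was present on either strand in 51 of the 35114 windows, which is 0.145% and belongs to 49 genes. Of these genes 23 had a base mean of at least 5. CXCL1 and CXCL2, which encode neutrophil-attracting chemokines, and NFKBIZ, which encodes another nuclear IkB protein, were also among them, and these 3 were noticed after the search among the pathway genes listed for comparison. A second site, GGGACTTTCC, was shared by NFKB2 and TNFAIP3 and was present in 67 windows, or 0.191%. The palindrome GGGAATTCCC of NFKB2 was present in 13 windows. The sharing was noticed in these sequences and was not tested.

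All 10 members were expressed in the podocyte cultures. Every base mean was at least 28.5, while 64.3% of the listed genes reached 5 and 39.9% reached 50. All 10 are protein-coding, and 11838 of the 14455 protein-coding genes listed reached 5. The median base mean of the protein-coding genes was 66.2. A base mean of at least 50 was found for 8 of the 10 members, all except REL and NFKBIE. The sum over the members was 1627, or 0.0256% of the summed base means of all genes. The 5 subunits summed to 819.7 and the 5 inhibitors and feedback genes to 808, both as base means.

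**Figure D2:**
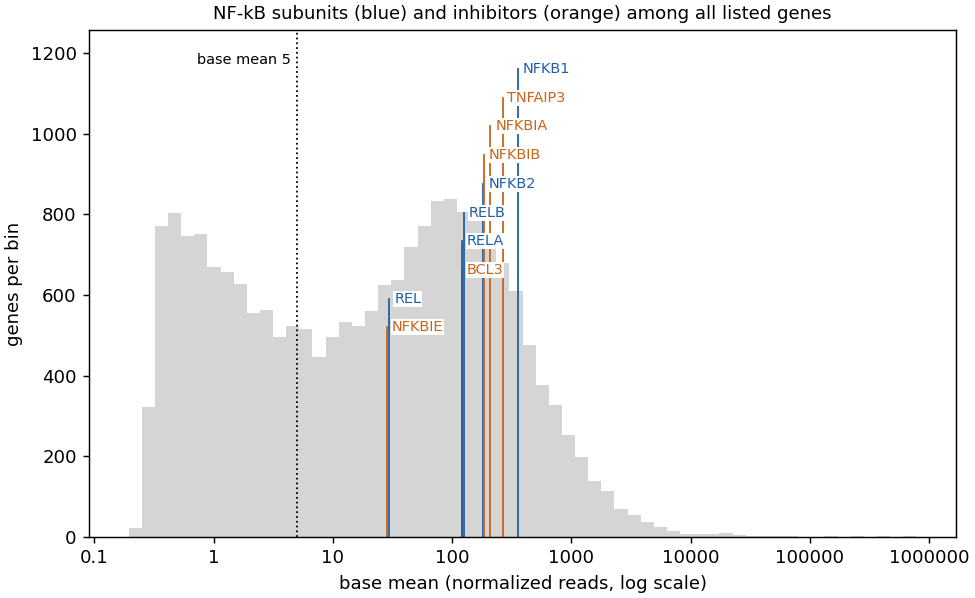
Histogram of the base mean (normalized reads, log scale) of the 20745 listed genes in grey, with each subunit (blue) and inhibitor or feedback gene (orange) as a line at its base mean. The members lie between 28.5 and 359, to the right of the dotted line at 5, and 0 of them are in the top 10% of the genes.

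NFKB1 (ENSG00000109320, chromosome 4 of GRCh38, 102501330 to 102617302), which encodes p105 and its product p50, had the highest base mean of the members, 359. This placed it above 88.9% of the listed genes. NFKB2 (ENSG00000077150, chromosome 10, 102394110 to 102402524), which encodes p100 and p52 of the non-canonical arm, had a base mean of 183. RELB (ENSG00000104856, chromosome 19, 45001461 to 45038192), the usual partner of p52, had one of 126. For RELA (ENSG00000173039, chromosome 11, 65653599 to 65663090), which encodes p65, the base mean was 121. REL (ENSG00000162924, chromosome 2, 60881491 to 60931612), the subunit best known from lymphocytes, had a base mean of 29.8 and stood above 53.6% of the genes.

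Base means are not corrected for transcript length, so the levels of the members were also divided by the length of the reference transcript. Reads from the 3′ end are not expected to grow with length, so this division can place long transcripts too low and short ones too high. Per kilobase, the base mean was 88.6 for NFKB1, 60.7 for NFKB2, 55.8 for RELB, 48.2 for RELA and 2.68 for REL. NFKB1 led the subunits on both scales, with 1.84 times the level of RELA per kilobase and 2.96 times its base mean. NFKB2, RELB and RELA were close to each other per kilobase, and with no spread between cultures it cannot be said whether they differ. Of the summed subunit level per kilobase, NFKB1 took 34.6%, NFKB2 23.7%, RELB 21.8%, RELA 18.8% and REL 1.05%. The reference transcript of REL is 11108 bases long, against 2517 for RELA. On the undivided base mean REL took 3.64% of the subunit sum.

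Among the inhibitors, NFKBIA (ENSG00000100906, chromosome 14, 35401079 to 35404749), the IkB-alpha that is resynthesized after NF-kB activation, had a base mean of 209.6, or 134 per kilobase. NFKBIB (ENSG00000104825, chromosome 19, 38899700 to 38908893), which encodes IkB-beta, had a base mean of 184, or 155 per kilobase, the highest of the members on that scale. NFKBIE (ENSG00000146232, chromosome 6, 44258166 to 44265788), which encodes IkB-epsilon, had a base mean of 28.5, or 12.2 per kilobase. NFKBIA thus stood 7.36 times above NFKBIE and 1.73 times above RELA by base mean, and 11.1 and 2.79 times above them per kilobase. NFKBIA and NFKBIB changed places between the scales.

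TNFAIP3 (ENSG00000118503, chromosome 6, 137867214 to 137883314) had the second highest base mean, 265, above 85.2% of the genes. Divided by its transcript of 4665 bases, its level was 56.8 per kilobase, the sixth highest of the members. BCL3 (ENSG00000069399, chromosome 19, 44747705 to 44760044), a partner of p50 and p52 homodimers in the nucleus, had a base mean of 120.5, or 64.2 per kilobase. TNFAIP3 was therefore 2.20 times BCL3 by base mean and 0.885 times BCL3 per kilobase, so that their order depends on the scale.

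**Figure D3:**
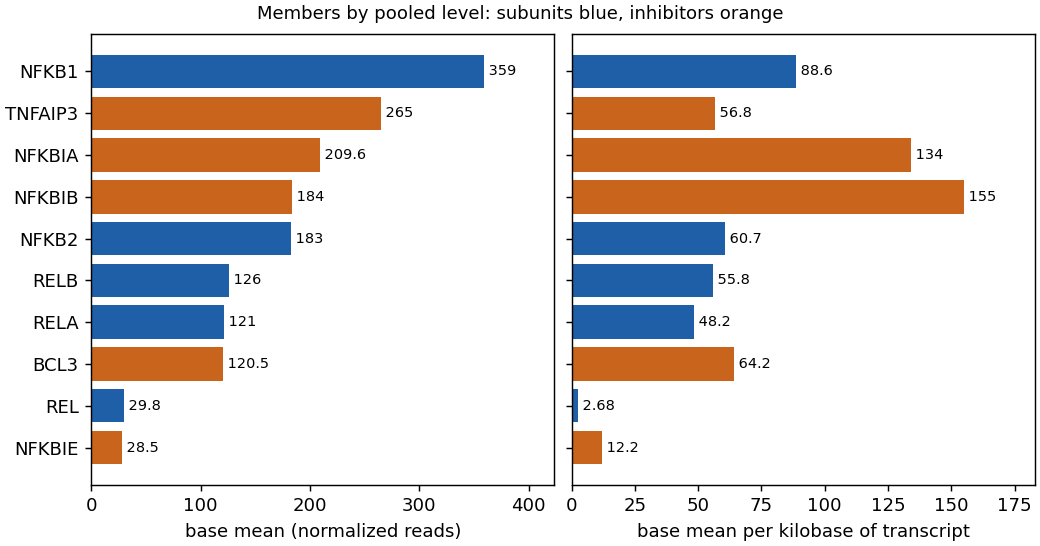
Base mean of each member as deposited (left, normalized reads) and divided by the length of its reference transcript (right, per kilobase), with subunits in blue and inhibitors or feedback genes in orange. Bars are pooled means with no error bar, because no value per culture was analysed. NFKB1 is highest on the left at 359, NFKBIB on the right at 155, and REL and NFKBIE are the lowest 2 on both. Reads came mostly from the 3′ end, so the right scale can place long transcripts too low.

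The positions of the members bear on how their reads were counted. BCL3 and RELB lie 241 kb apart on chromosome 19, with 10 protein-coding genes between them, and NFKBIB lies 5.84 Mb from BCL3 on the same chromosome. For 9 of the 10 members, no exon of another gene in GENCODE 44 covered any part of the last 500 exonic bases on either strand, the stretch where most reads of such a library fall. The exception was REL, where 99.6% of that stretch is covered by an exon of an unnamed gene on the same strand. That gene has no row in the table. Whether the authors' older annotation held it was not tested, and reads shared by 2 genes would be left out of the count of both, so the level of REL is uncertain.

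The genes around the members were listed by role, from 73 genes that are no members, and 64 of them had a base mean of at least 5. Among all 14455 protein-coding genes listed 11838 reached 5, and among all listed genes 64.3% did, so most genes pass this minimum. In the IKK complex and its kinases 10 of 11 genes reached 5, led by CHUK (IKK-alpha) at a base mean of 285 and MAP3K7 (TAK1) at 255. The exception was IKBKG, the gene of the regulatory subunit NEMO, at 1.75. IKBKG has a nearly identical pseudogene, and reads that fit both copies are discarded, so this value is uncertain. Of the partners of A20 and deubiquitinases 9 of 10 reached 5, with TAX1BP1 at 1009.8, TNIP1 at 560.5 and TNIP3 at 3.41. A further list of 4 genes held IkB proteins and other regulators that are not IkB proteins, IKBIP among them. All 4 reached 5, with IKBIP at 949 and NFKBIZ at 405. Among the adaptors and ubiquitin ligases 14 of 15 reached 5. BIRC3, an inhibitor of apoptosis that acts downstream of TNF receptors, had a base mean of 383. FBXW11, a substrate receptor of the ligase that marks IkB for degradation, had one of 291. RNF31, the catalytic subunit of the linear ubiquitin ligase, was at 1.64. Overlap with other genes at the 3′ end was checked for the members only, so whether RNF31 lost reads in counting is not known.

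Upstream of these, 10 of 11 receptors reached a base mean of 5. TNFRSF12A (Fn14), the receptor of TWEAK, had the highest, 1906, and TNFRSF1A, the main TNF receptor of non-immune cells, had 144. TNFRSF1B, the TNF receptor known mainly from leukocytes and endothelium, was at 0.656. Of 8 ligands, 4 reached 5, with IL1A at 143 and TNFSF12 (TWEAK) at 93.6, LTB was at 0.423, and LTA, TNFSF11 and CD40LG had no row. Downstream, 14 of 15 genes known as NF-kB targets reached 5. The monocyte chemoattractant CCL2 had a base mean of 1405 and the survival gene BCL2L1 one of 1318, whereas MMP9 was at 0.557. Among genes at a base mean of at least 5, 17.3% of those with a window held a kB match. Of all genes with more than 1 window, as several targets have, 25.1% did. A match was found for 6 of 13 targets, 3 of 6 ligands and 2 of the 4 genes in the list with IKBIP. NFKBIZ is in both that list and the targets, and it held a match. Matches were also found for 3 of 10 partners of A20 and deubiquitinases and 3 of 12 adaptors and ubiquitin ligases. They were found for 1 of 10 genes of the IKK group and 0 of 9 receptors. These lists are small and the shares were not tested.

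**Figure D4:**
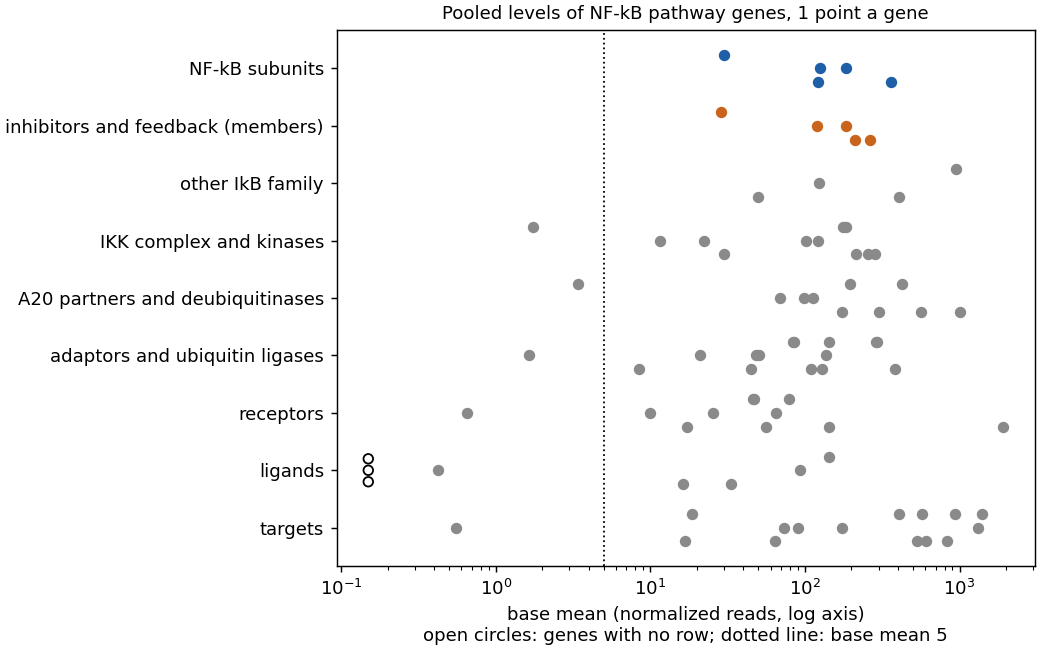
Base mean (normalized reads, log axis) of the NF-kB subunits (blue), the inhibitors and feedback genes (orange) and the listed pathway genes by role (grey), 1 point a gene and NFKBIZ in 2 groups. Open circles at the left edge are the 3 ligands with no row, and the dotted line marks a base mean of 5. The members lie within the range of the other groups, and 64 of the 73 other genes are at or to the right of the line. Of all 14455 protein-coding genes listed, 11838 reach that base mean too.

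The cultures were checked against cell type markers. Of 17 podocyte markers 12 reached a base mean of 5. Among all 14455 protein-coding genes listed 11838 did too, so this count does not identify the cells as podocytes. The highest were VIM at 19062 and ACTN4 at 14320.5, which other cells also express. WT1 was at 6.21, PODXL at 15.3 and SYNPO at 22.8, PTPRO was at 0.333, and the slit diaphragm gene NPHS1 and the factor LMX1B had no row. None of 6 leukocyte, 5 endothelial, 3 mesangial and 6 tubular markers reached 5. The highest of the leukocyte markers was ITGAM at 3.40, and CD3E had no row.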

How the data were processed

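Libraries followed a modified CEL-seq protocol. Per the labels and methods, the authors trimmed reads with Trim Galore 0.4.5, mapped them to GRCh38 with STAR 2.7.5a, counted them with HTSeq 0.11.0 on Ensembl 95 and compared the groups with DESeq2 1.22.0. The authors deposited 1 table of this comparison. Its base mean is a signal, the mean of normalized reads over the libraries of the authors' fit, and it pools both groups. The other 5 value columns hold the authors' log2 fold change, its standard error, statistic, p-value and adjusted p-value. They were not used, and no test of levamisole was made.

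Base means were ranked and summed over lists with Python 3.11.15, NumPy 2.4.6 and pandas 2.3.3, with a minimum of 5, after the read cutoff of the methods. Positions, transcript lengths and 3′ overlaps came from GENCODE 44 on the same assembly, which held 20599 of the gene identifiers, and each length is that of the transcript marked as canonical. Promoter windows came from RefSeq and were searched on both strands. The search and ranking were tested on simulated data. The members and lists were chosen with earlier results of these data known. Genes named are the members, the 2 genes of highest base mean in each pathway list, and genes under 5 or with no row. Of the podocyte markers WT1, PODXL and SYNPO, and of the leukocyte markers those named, were chosen after their values were seen. Values of some markers are not reported here.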

Additional observations from a re-analysis of the deposited data

How the results depend on the processing

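No paired analysis was possible because the column used carries no replicate. For the same reason no replicate was left out, and the fits with edgeR or DESeq2, the other normalizations and the replicate block were not run. The members had a median place above 77.2% of all listed genes, which became 64.7% among genes at or above a base mean of 5 and 67.9% among protein-coding genes, since both sets leave out low genes. The highest member stood 12.6 times above the lowest by base mean and 57.6 times per kilobase, and 9 of 10 members took another place in the order. In a library read from the 3′ end, reads are not expected to grow with transcript length. Division by length can then make long transcripts look low and short ones high, so the undivided base mean is the main scale. The members made up 0.0256% of the summed base means and 0.0393% without the 22 mitochondrial genes. The count of members detected went from 10 at minimums of 5 and 10 to 8 at 50, and that of the other pathway genes from 64 to 62 and 47, with 70 above 0. Of all listed genes, 64.3% reached 5, 57.8% reached 10 and 39.9% reached 50. A looser consensus (2 G and 2 purines first) matched 8 of the members' 13 windows and 14.0% of all windows. With 1 mismatch 11 of 13 and 69.4% of all windows matched.

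The low end of the table bears on what the base mean covers. The methods give a cutoff of 5 reads per sample and gene, which would be a base mean of about 5 in libraries of equal size, and 7409 genes lie below 5. Even 5 reads in all over 6 such libraries would give 0.833, and 3242 genes lie below that. The cause was not tested.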
